A study of Caenorhabditis elegans with 2 samples.

Results

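The nuclear hormone receptor genes of Caenorhabditis elegans form a family of 267 protein-coding genes with symbols that start with nhr-, of 19973 protein-coding genes on the nuclear chromosomes of the WBcel235 (ce11) annotation. The members were chosen by symbol alone, leaving out nhr-23 and nhr-25, and the rule used no measured value, although the family was picked with earlier results of these data known. The 19704 protein-coding genes with other symbols served for comparison. The study mapped DNA bound by an eGFP fusion of PEB-1, a zinc-finger DNA-binding protein, by ChIP-seq, which sequences the DNA recovered with an immunoprecipitated protein. Its only group was 2 biological replicates of whole L2 larvae (the second larval stage) of mixed sex. Both came from strain OP86, which carries unc-119(ed3) on chromosome III and the transgene wgIs86 with the tagged peb-1. The sources used here state neither the transgene's promoter nor its copy number. A signal from whole animals cannot be assigned to a cell type. There was no comparison group, so the question is where the tagged protein was recovered along the family and how often relative to other genes.

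Nuclear hormone receptors are transcription factors that carry a DNA-binding domain of zinc fingers and a domain that can bind small lipophilic ligands such as steroids and fatty acids. The C. elegans genome holds far more of them than insects or vertebrates do, most of them descended from an ancestral receptor related to HNF4 and lying in clusters on chromosome V. The receptors studied so far act in fat metabolism, in responses to foreign compounds and pathogens, and in larval development.

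A gene was given the best-ranked peak whose summit lay from 1000 bp upstream to 200 bp downstream of any of its annotated transcript starts, here called its promoter window. Rank was by peak height as deposited, within each of 3 relaxed lists of 30000 peaks: replicate 1, replicate 2, and both pooled. The sources used here gave neither the scale of the peak heights nor the read depth. Heights at rank 1000 were 22.5 in the pooled list, 15.1 in replicate 1 and 12.2 in replicate 2. The lists hold weak candidates by design, and the 160 highest pooled peaks were the same peaks as the study's thresholded list, which ended at a height of 35.4. Intervals below are 95% exact binomial (Clopper-Pearson) and cover counting error over genes only. No test across samples was possible with 1 group.

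The strongest promoter peaks of the family lay at nhr-135, nhr-1, nhr-66 and nhr-32. The 101 bp centred on the pooled summits of nhr-135 (V:7094081-7094181, minus strand), nhr-1 (X:17513797-17513897, plus strand), nhr-66 (IV:8229604-8229704, minus strand) and nhr-32 (X:13251590-13251690, plus strand) are shown with that of nhr-255 (X:15742039-15742139, plus strand), whose summit fell in a tRNA gene. They are read from the RefSeq copy of WBcel235 on the strand of the gene. Capitals mark GAGAGA, or 1 of 6 hexamers, on either strand. The hexamers were ATGCCA and ATGCCG, then GTGCCA and GTGCCG, then TTGCCA and TTGCCG, called the core here after a consensus recalled for PEB-1, which no source used here gives.
nhr-135: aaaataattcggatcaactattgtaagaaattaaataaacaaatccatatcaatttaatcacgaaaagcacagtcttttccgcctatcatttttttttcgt
nhr-1: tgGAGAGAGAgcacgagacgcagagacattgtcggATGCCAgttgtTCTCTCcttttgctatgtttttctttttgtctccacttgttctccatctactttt
nhr-66: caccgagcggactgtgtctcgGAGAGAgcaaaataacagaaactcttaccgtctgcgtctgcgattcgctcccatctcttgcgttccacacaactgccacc
nhr-32: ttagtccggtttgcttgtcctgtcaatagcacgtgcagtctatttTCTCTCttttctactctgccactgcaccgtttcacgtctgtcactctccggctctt
nhr-255: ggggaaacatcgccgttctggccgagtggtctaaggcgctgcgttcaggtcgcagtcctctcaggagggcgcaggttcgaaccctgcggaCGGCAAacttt
The nhr-1 stretch held 1 core hexamer and 3 overlapping or separate GAGAGA matches. Those of nhr-66 and nhr-32 held 1 GAGAGA match each and no core hexamer, and that of nhr-255 held 1 core hexamer. The nhr-135 stretch, under the strongest peak of the family, held neither and had a GC content of 26.7%, against 43.6% to 62.4% for the other 4.

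No nuclear hormone receptor gene had a summit of the thresholded list in its promoter window. Of the 267 members, 0 were within the highest 160 pooled peaks, which allows a share of up to 1.12% by the limit of 3 genes of the 267, or 1.37% as the upper end of the exact interval, against 0.401% of all 19973 protein-coding genes. At the share of other genes 1.08 members would lie there, so in a family of this size the absence was not distinguishable from the background. The highest member, nhr-135, stood at rank 246 with a height of 31.4.

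Below the thresholded peaks the family's share was near the background at most ranks. Within the highest 1000 pooled peaks lay 8 of 267 members (3.00%, interval 1.3 to 5.82), against 1.90% of all protein-coding genes. Within the highest 2500 lay 20 members (7.49%, interval 4.64 to 11.3), against a background of 4.34%. This was the only one of the 7 rank limits examined, from 160 to 30000, at which the interval for the members lay above the share of other genes. Within the highest 5000 lay 28 members (10.5%, interval 7.08 to 14.8) against 8.03%, within the highest 10000 lay 41 (15.4%) against 14.7% of other genes, and anywhere in the pooled list 107 (40.1%) against 37.5% of all genes. Among genes with any pooled peak, the median best rank was 13516 for the 107 members and 13106 for the 7383 other genes.

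The larger share at rank 2500 did not appear in both replicates. In the list of replicate 1, 6, 15 and 27 members lay within the highest 1000, 2500 and 5000 peaks (2.25%, 5.62% and 10.1%), against backgrounds of 2.18%, 4.69% and 8.54%. In that of replicate 2 the counts were 2, 9 and 17 members (0.749%, 3.37% and 6.37%), against backgrounds of 1.58%, 3.64% and 6.93%. The members' share was above the background in replicate 1 and below it in replicate 2 at all 3 limits, and in each of these 6 cases the background lay inside the members' interval. The pooled list combines the reads of both replicates and is not independent of them. No peak in any of the 3 lists was found for 102 members (38.2%), against 41.5% of other genes.

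**Figure D1:**
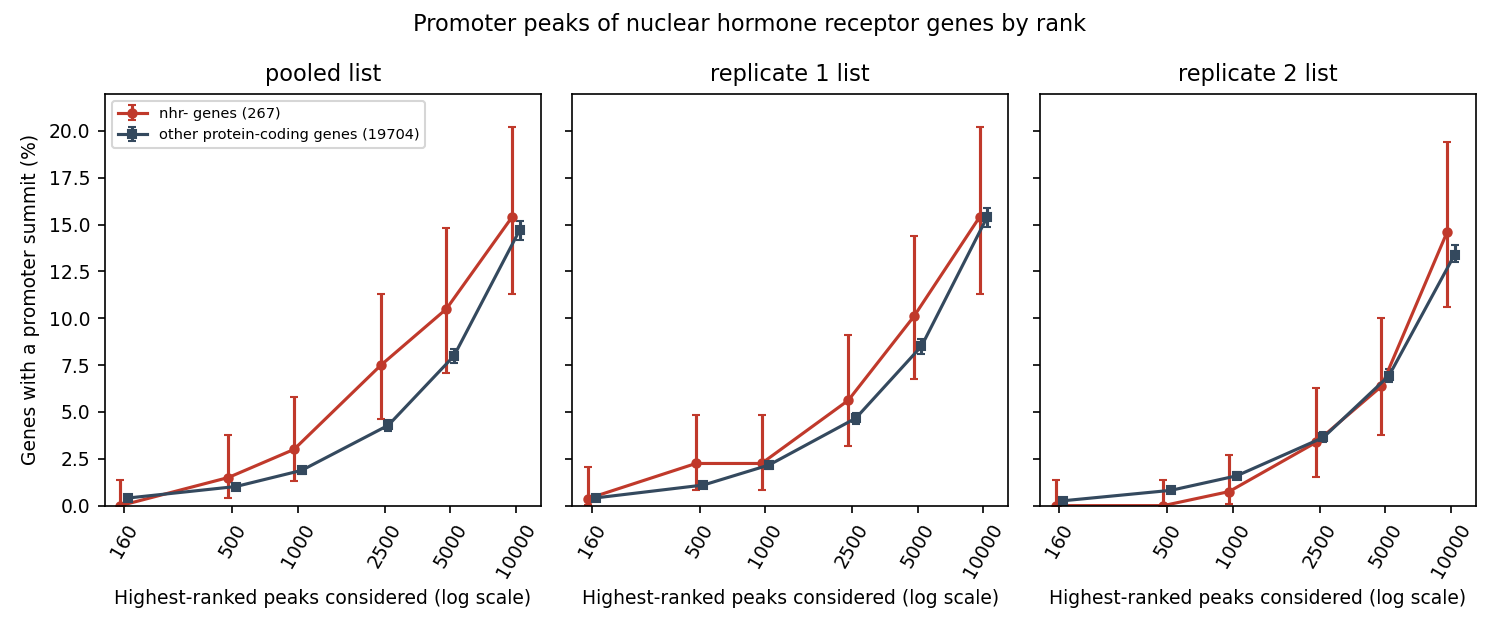
Percentage of nuclear hormone receptor genes (267, red circles) and other protein-coding genes (19704, dark squares) with a summit in the promoter window among the highest 160 to 10000 peaks (horizontal log axis), for the pooled list and each replicate. Bars are 95% exact binomial intervals over genes; the members stand above other genes at 2500 in the pooled list (7.49% against 4.29%) and slightly below them in replicate 2 (3.37% against 3.64%).

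Most of the family's higher-ranked peaks were at genes with several annotated starts, which have a wider search window. The part of window width in the family's share was not tested. Of the 100 members with several starts (mean window 1992 bp), 14 (14%, interval 7.87 to 22.4) lay within the highest 2500 pooled peaks, against 7.04% of 5373 other genes with several starts (mean 2146 bp). Of the 167 members with 1 start, 6 (3.59%, interval 1.33 to 7.66) did, against 3.26% of 14331 other genes of this kind, all with a window of 1201 bp. Several starts were annotated for more of the members than of other genes, since 62.5% of members and 72.7% of other genes had 1 start. In replicate 2 the shares at this limit were 6.0% for members with several starts and 5.51% for such other genes, and in replicate 1 they were 9.0% and 7.57%.

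The 8 members within the highest 1000 pooled peaks mostly ranked higher in replicate 1 than in replicate 2, nhr-59 (2318 and 2279) apart. All 8 were within the highest 5000 of replicate 1, with a median rank of 363, but only 2 of them were in replicate 2, where 2 had no peak in the window. Of the 371 other genes at the same pooled ranks, 89.5% were within the highest 5000 of replicate 1 and 56.1% within those of replicate 2. At the limit of 2500 the pattern was alike, with 16 of 20 members within the highest 5000 of replicate 1 and 6 of 20 in replicate 2, against 71.5% and 49.2% of 845 other genes.

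The peak of nhr-66 was the one among these 8 that ranked high in each replicate. The NHR-66 protein is known to act with NHR-49 in control of lipid genes. The peak ranked 405 in the pooled list (height 27.5), 190 in replicate 1 (24.8) and 633 in replicate 2 (12.9). Its pooled summit lay inside the gene (IV:8226331-8236602, minus strand), in an untranslated exon, at -77 bp from the nearest of 7 annotated starts. The peaks of the 2 replicates overlapped, although their summits stood at -77 bp and -310 bp from the nearest start whose window held them. No other member lay within the highest 1000 peaks of each replicate, a position held by 0.360% of all protein-coding genes and by 0.375% of the family.

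The peak of nhr-59 was weaker but similarly placed in both replicates. It ranked 718 in the pooled list (height 24.1), 2318 in replicate 1 (12.3) and 2279 in replicate 2 (10.8). The summit lay at -150 bp from its start (V:2276013-2278265, minus strand) and also in the promoter window of fbxa-137, an F-box family gene, so the peak could not be assigned to either gene alone. Another member in both lists was nhr-256 on V, at ranks 1885, 3684 and 2813 in the pooled, replicate 1 and replicate 2 lists, with the summit of the pooled peak at -741 bp. Within the highest 5000 of each replicate lay 5 members (1.87%, interval 0.611 to 4.32), against 1.46% of all protein-coding genes. Of these 5, nhr-66, nhr-59 and nhr-256 had overlapping best peaks, while in nhr-52 and nhr-65 the best peaks of the replicates stood at different sites in the window. Among the 287 other genes within both limits, the best peaks overlapped in 207.

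Other members of the highest 1000 were strong in replicate 1 and weak or absent in replicate 2. The nhr-135 peak (summit -361 bp; V:7091714-7093770, minus strand) ranked 306 in replicate 1 (height 21.2) and 5412 in replicate 2 (9.15). The peak of nhr-1 (-216 bp; X:17514063-17528197, plus strand) ranked 273 in replicate 1 (height 22), while the best peak of replicate 2, at rank 14398 (7.03), lay at another of its 4 starts. The gene nhr-32 (X:13251964-13256284, plus strand) had the highest rank of any member in a replicate, 132 in replicate 1 (height 27.6, pooled summit -324 bp), and no peak in its window in replicate 2. These 3 summits were intergenic, and no other protein-coding gene's window held them.

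The nhr-255 peak lay in sequence of which a part is present more than once in the genome. Its pooled summit, at -521 bp (X:15742610-15744298, plus strand), fell in an exon of a tRNA gene (WBGene00014626) and of the non-coding RNA gene ZK678.11. Of the 31-base words in this peak 81.3% occurred once in the genome, against 100% in the peaks of the other 7 leading members. It ranked 883 in the pooled list (height 23.1) and 420 in replicate 1 (19.2), and had no peak in replicate 2. The part of the repeated sequence in these ranks was not tested.

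The nearest members on each side of the limit of 1000 differed little in height. Inside it were nhr-48 at 689, nhr-59 at 718 and nhr-255 at 883, with heights of 24.3, 24.1 and 23.1, and outside it nhr-118 at 1294, nhr-58 at 1330 and nhr-41 at 1490, with heights of 21.5, 21.4 and 21.0. The nhr-118 peak had no counterpart in the window in replicate 2, and that of nhr-58 ranked 1955 in replicate 1 and 5831 in replicate 2.

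**Figure D2:**
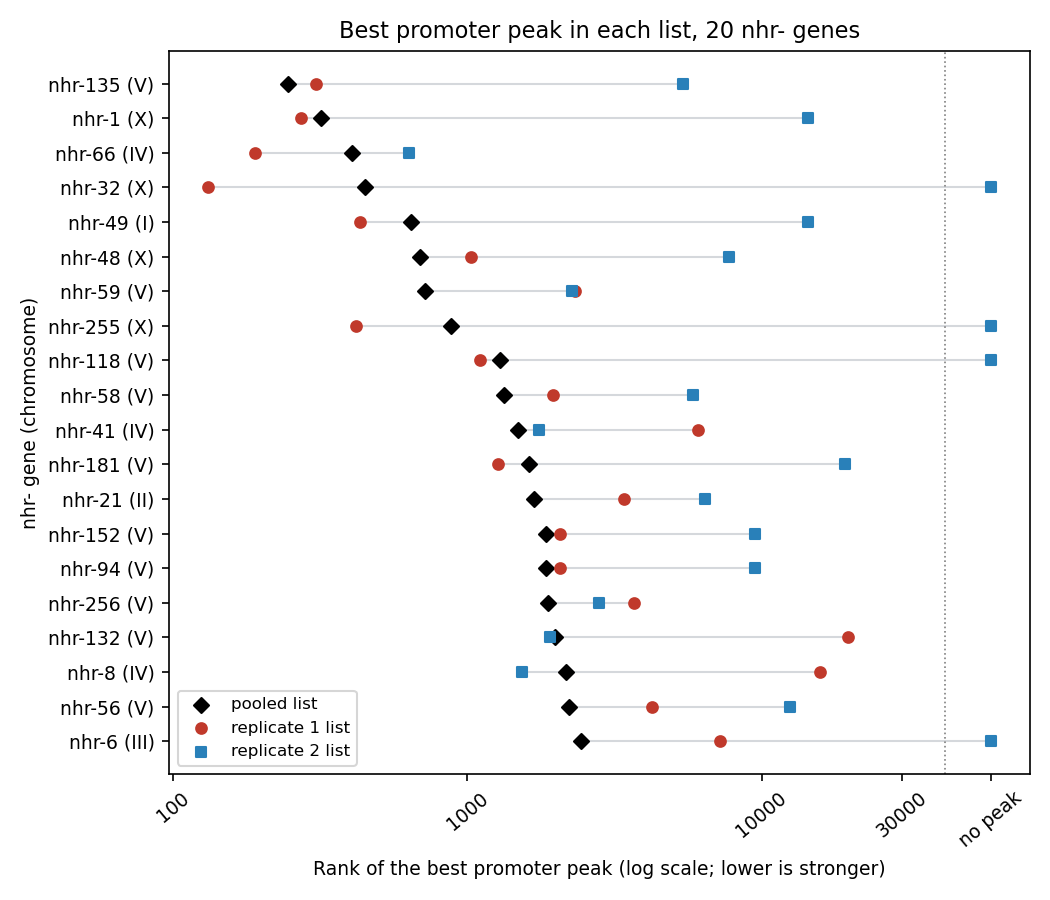
Rank of the best promoter peak (horizontal log axis, lower is stronger) of the 20 members within the highest 2500 pooled peaks, in the pooled list (black diamonds), replicate 1 (red circles) and replicate 2 (blue squares); points right of the dotted line had no peak in the window. The nhr-66 points lie between 190 and 633, while nhr-32, nhr-255, nhr-118 and nhr-6 have no peak in replicate 2.

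Replicate 2 had its own leading members, which were picked out after their values were seen. The gene nhr-137 on X ranked 541 there (height 13.2, summit -28 bp), 5062 in the pooled list, and had no peak in replicate 1. The genes nhr-262 on V, nhr-146 on IV and nhr-127 on V ranked 1251, 1390 and 1578 in replicate 2, while nhr-262 and nhr-127 ranked 26734 and 26431 in replicate 1 and nhr-146 had no peak there. Of the 9 members within the highest 2500 of replicate 2, 6 were past rank 10000 or absent in replicate 1. Of the 15 such members of replicate 1, 6 were past rank 10000 or absent in replicate 2. Matching counts were not made for other genes. Within the highest 2500 of both lists were 13.3% of these 15 members and 22.2% of these 9. For other genes within the highest 2500 of replicate 1 or of replicate 2, these shares were 15.3% and 19.6%. Over the 59 members with a peak in both replicate lists, which share a control file per the file listing, the rank correlation was 0.29 (Spearman's rho, across genes), and over 3645 other genes it was 0.12.

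A fixed list held 7 members with clear orthologues in insects or vertebrates, of which all had a pooled peak and 4 were within the highest 2500. This list took nhr- genes only and is not every conserved receptor of the genome. Receptor genes with other symbols are given separately below. The backgrounds over all protein-coding genes were 37.5% and 4.34%. The 4 within the highest 2500 are named next. These were nhr-48 and nhr-8, relatives of the vertebrate vitamin D and xenobiotic receptors, nhr-41, the orthologue of Drosophila Hr78, and nhr-6, the orthologue of the vertebrate NR4A receptors with a role in the spermatheca. The list is short, its windows were long (median 2402 bp, up to 5363 bp at nhr-41), and the share was not tested. The nhr-48 peak (-489 bp; X:15708213-15716875) ranked 689 in the pooled list and 1030 in replicate 1. In replicate 2 the best peak of nhr-48 ranked 7758 and did not overlap that site, with its summit at 51 bp. The peaks of nhr-41 (pooled summit -630 bp; IV:1386215-1399353) ranked 1490, 6077 and 1755 in the pooled, replicate 1 and replicate 2 lists, and the best peaks of the replicates overlapped.

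The nhr-8 peak ranked 2172 in the pooled list, 15844 in replicate 1 and 1530 in replicate 2. It lay at -769 bp from the start of nhr-8, in a coding exon of mrps-24, and the promoter windows of mrps-24, mrpl-1 and emc-6 held the same summit. The nhr-6 peak (-406 bp) ranked 2431 in the pooled list and 7205 in replicate 1, and was absent from replicate 2. The remaining receptors of this fixed list were weak: nhr-67, the orthologue of tailless, ranked 13695 in the pooled list. The pooled ranks of nhr-85, the orthologue of Drosophila E75, and of nhr-91, that of the vertebrate germ cell nuclear factor, were 25879 and 27694.

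Among 10 members with roles in fat and carbon metabolism, 5 had any pooled peak and 2, nhr-66 and nhr-49, were within the highest 1000. The backgrounds over all protein-coding genes were 37.5% and 1.90%. The nhr-49 gene encodes a receptor that controls fatty acid desaturation and the response to fasting (I:9869651-9874680, plus strand). Its peak lay in an intron of the gene at -783 bp from a start and ranked 644 in the pooled list (height 24.6), 433 in replicate 1 (19.1) and 14422 in replicate 2 (7.02). The peaks of nhr-80, which acts on desaturase genes, nhr-114, which is needed for fertility on some bacterial diets, and nhr-10, a regulator of propionate breakdown, ranked 12145, 15806 and 16057 in the pooled list. No pooled peak was found in the windows of nhr-13, nhr-62, nhr-68, nhr-69 and nhr-76. The median window of this list was 1860 bp, but it was 4546 bp at nhr-66 and 3719 bp at nhr-49. The list is short, and its share was not tested.

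Of members with listed roles in defence or in development, 3 of 6 and 4 of 8 had a pooled peak. The background over all protein-coding genes was 37.5%. Of 6 listed for responses to foreign compounds, pathogens, iron or low oxygen, only nhr-8 was within the highest 5000 pooled peaks. In this list nhr-14, which controls iron uptake, ranked 16466, and nhr-176, which acts on breakdown of a benzimidazole drug, ranked 21695. The windows of nhr-86, nhr-57 and nhr-112 held no pooled peak. Of 8 listed for development and differentiation, only nhr-6 was within the highest 5000, nhr-67, nhr-85 and nhr-91 ranked lower as given above, and nhr-2, nhr-31, nhr-40 and nhr-60 had no pooled peak. The limit of 5000 took in 8.03% of all protein-coding genes. Both lists are short, and their shares were not tested.

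Of 5 nuclear receptor genes with other symbols, 2 had a pooled peak and 0 were within the highest 5000, at backgrounds of 37.5% and 8.03% of all protein-coding genes. Here daf-12 and fax-1 ranked 15377 and 24698 in the pooled list, and odr-7, sex-1 and unc-55 had no pooled peak. The fax-1 peak ranked 2505 in replicate 2 and was absent from replicate 1. Of 3 cofactor genes, 2 were within the highest 160, at a background of 0.401%. Windows reached 6028 bp among the cofactor genes (median 1244 bp) and 7499 bp among the receptor genes with other symbols (median 1201 bp). Both lists are short, and no difference between them was tested. The gene din-1, which encodes a corepressor that partners DAF-12, ranked 38 in the pooled list, 25 in replicate 1 and 1444 in replicate 2. The cbp-1 gene, for a histone acetyltransferase of the CBP/p300 family, ranked 125, 156 and 10110 in the same lists. The Mediator subunit gene mdt-15, for a coactivator of NHR-49, had no peak in any of them.

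Chromosome V held 167 of the 267 members (62.5%), against 24.5% of other protein-coding genes. The counts of members on V and elsewhere were small at the stricter limits, and the difference between them was not tested. Within the highest 1000 pooled peaks lay 2 of 167 members on V (1.20%, interval 0.145 to 4.26) and 6 of 100 members elsewhere (6.0%, interval 2.23 to 12.6). The corresponding shares of other genes were 1.37% on V and 2.05% elsewhere. Within the highest 2500 lay 10 members on V (5.99%, interval 2.91 to 10.7) and 10 elsewhere (10%, interval 4.90 to 17.6), against 3.58% and 4.52% of other genes. Within the highest 5000 lay 16 on V (9.58%) and 12 elsewhere (12%), and anywhere in the list 64 on V (38.3%) and 43 elsewhere (43.0%). At each of these 4 limits the intervals of members on V and elsewhere overlapped, which does not show that the shares were alike. With replicate 2 left out, 1 member on V (0.599%) and 5 elsewhere (5.0%) were within the highest 1000, and with replicate 1 left out 0 on V and 2 elsewhere were.

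**Figure D3:**
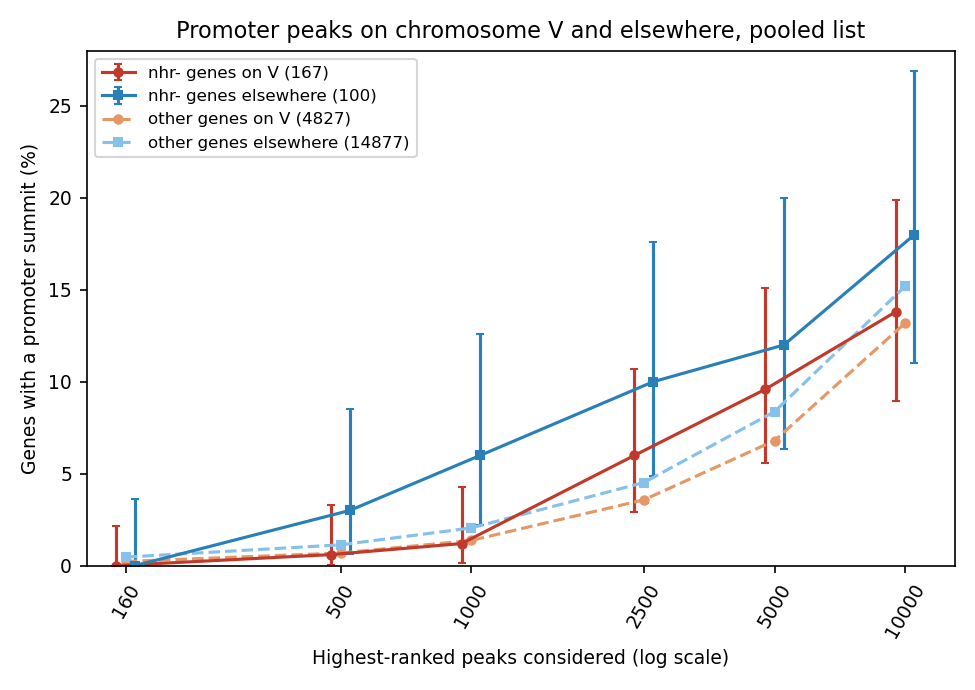
Percentage of genes with a promoter summit among the highest 160 to 10000 pooled peaks (horizontal log axis), for members on V (167, red circles), members elsewhere (100, blue squares) and other genes on V and elsewhere (dashed lines). Bars are 95% exact binomial intervals for the members; at rank 1000 members on V stand near other genes on V (1.20% against 1.37%) and members elsewhere higher (6.0%).

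The members outside V with a peak of rank up to 1000 were mostly on X. There, 4 of 22 members (18.2%, interval 5.19 to 40.3) were nhr-1, nhr-32, nhr-48 and nhr-255, against 3.77% of 2708 other genes on X. The planned comparison was of V with elsewhere, so setting X apart was an addition to it, and the share on X was not tested. On chromosomes I to IV the count was 2 of 78 members (2.56%, interval 0.312 to 8.96), nhr-49 and nhr-66, against 1.67% of 12169 other genes. In replicate 2 only 1 member on X was within the highest 1000 (4.55%), the gene nhr-137, against 2.55% of other genes on X, and none of these 4 was. Without X, 4 of 245 members (1.63%) and 1.58% of 16996 other genes lay within the highest 1000 pooled peaks, and 16 members (6.53%, interval 3.78 to 10.4) and 3.87% of other genes within the highest 2500.

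Many members on V lie close to one another. Another member stood within 10 kb of 122 of 167 members on V and of 37 of 100 elsewhere. Over the whole family, 8 of the 159 members with such a neighbour (5.03%, interval 2.20 to 9.67) and 12 of the 108 without one (11.1%, interval 5.87 to 18.6) were within the highest 2500 pooled peaks. The mean window was 1389 bp for the members with a neighbour and 1657 bp for those without. In replicate 2 the shares were 3.77% with a neighbour and 2.78% without one. At least 95% of the 31-base words were unique to the genome in the windows of 80.8% of members on V, 78.0% of members elsewhere and 78.6% of all other genes. The adjacent genes nhr-94 and nhr-152 on V share 1 peak of rank 1850, in an intron of nhr-94 at -25 bp from its start and -533 bp from that of nhr-152, and count as 2 members above.

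Most of the family's higher-ranked peaks lay outside protein-coding genes and close upstream of a start, as did most of those of other genes. The member counts are small, and the differences were not tested. Of the 20 members within the highest 2500, 13 had the summit in the 500 bp upstream of a start (65.0%), against 51.0% of 845 other genes. The 20 members drew on 19 peaks, of which 13 lay outside protein-coding genes (68.4%), against 53.0% of the 736 peaks of other genes. These 13 include the nhr-255 peak, since exons of non-coding genes were counted apart, with 1 of the 19 member peaks (5.26%) and 10.2% of the 736 others in one. A coding exon held 1 (5.26%), the nhr-8 peak, against 16.4%. Another protein-coding gene's window also held the summit for 4 of the 20 members (20%) and for 25.3% of other genes.

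**Figure D4:**
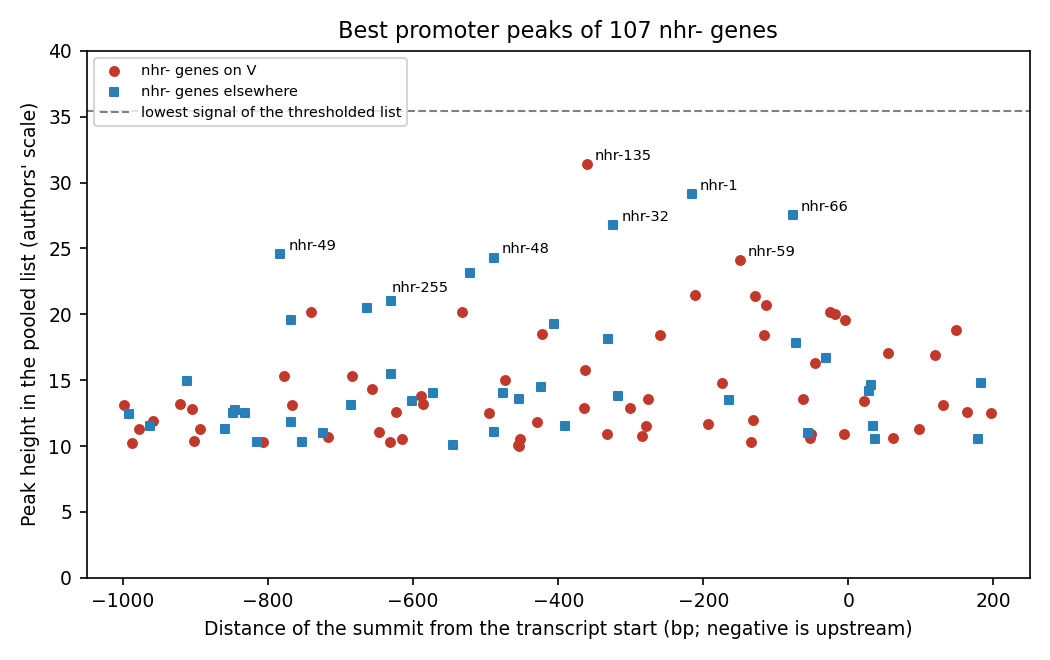
Height in the pooled list (vertical axis, authors' scale) against distance of the summit from a start (bp, negative upstream) for the 107 members with a pooled peak. The start is the nearest one whose promoter window holds the summit. Members on V are red circles and members elsewhere blue squares. The dashed line is the lowest height of the thresholded list, 35.4; all members lie below it, and the 8 within rank 1000 are named.

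At the family's summits the shares with the letters shown above had wide intervals, which held the shares of other genes of like rank. Within 100 bp of the summit a core hexamer was present at 6 of 19 member peaks within the highest 2500 (31.6%, interval 12.6 to 56.6) and at 43.3% of 736 peaks of other genes. GAGAGA was present at 6 of 19 (31.6%, the same interval) and at 28.9% of the others. At the 8 member peaks within the highest 1000 the core was found at 3 and GAGAGA at 4, (intervals 8.52% to 75.5% and 15.7% to 84.3%), against 49.2% and 42.9% of 319 peaks of other genes. Over the whole window of 1201 bp at the most upstream start, a core hexamer occurred in 88.8% of 267 members and 88.7% of other genes, and GAGAGA in 53.6% and 50.9%, so a match in a promoter is common. GC content in the 201 bp around the summit had a median of 37.3% over the 19 member peaks and 41.8% over the 736 peaks of other genes.

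Other gene families named by symbol had shares on both sides of the background. Within the highest 2500 pooled peaks lay 7.49% of nuclear hormone receptor genes, against a background of 4.34% of all protein-coding genes. The counts were 1 of 63 homeobox genes named ceh- (1.59%) and 3 of 25 helix-loop-helix genes named hlh- (12%). For chemoreceptor genes they were 3 of 220 named srh- (1.36%, interval 0.282 to 3.93) and 7 of 193 named str- (3.63%, interval 1.47 to 7.33). The srh- interval lay below the background. In replicate 1 the shares were 5.62% for receptors, 1.59% for ceh-, 0.455% for srh- and 1.55% for str-, with 3 of 25 hlh- genes. In replicate 2 they were 3.37%, 1.59%, 2.73% and 4.66%, with 1 of 25 hlh- genes. The backgrounds over all protein-coding genes were 4.69% in replicate 1 and 3.64% in replicate 2. The intervals of srh- (0.0115 to 2.51) and str- genes (0.322 to 4.48) lay below the background in replicate 1. In replicate 2 the intervals of both held it. The receptors' share was thus above that of str- genes in replicate 1 and below it in replicate 2. A lone start was annotated for 62.5% of the receptors, against 92.7% of srh- and 92.2% of str- genes. None of these differences was tested.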

How the data were processed

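ChIP-seq peak lists of 2 biological replicates in 1 group were used in the ce11 build. Replicates were called separately and pooled, each with a control file, per the file listing; no source used here names the aligner or peak caller. Ranks follow the signal value that the authors deposited for a peak (its height), on an unstated scale. A further deposited score broke ties, as pooled values fell below 0, which a −log10 q-value cannot do. The summit offset is as deposited. The ce10 lists were not used here.

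Genes and starts came from Ensembl release 115 (WBcel235), sequence from RefSeq's copy of that assembly. Windows ran from 1000 bp upstream to 200 bp downstream of every transcript start. A sequence word of 31 bases was unique if found once on either strand. Python 3.11.15, NumPy 2.4.6 and SciPy 1.17.1 were used, and the window search was checked on simulated peaks.

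Named were members within the highest 1000 pooled peaks or of both replicates, 3 on each side of that limit, and fixed role lists. Members and lists were chosen with earlier results of these data known. Alternatives covered windows, starts, gene assignment, each replicate alone and reweighted other genes. Depth is unknown.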

Additional observations from a re-analysis of the deposited data

How the results depend on the processing

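The ratio of the share of nuclear hormone receptor genes to that of other genes was recomputed at ranks 1000, 2500 and 5000, with that of members on V to members elsewhere. Median rank, recurrence and sequence letters were recomputed too, 73 alternatives in all. Leaving out 1 replicate in turn, the family ratio ran from 0.470 to 1.03 at rank 1000 (1.59 pooled), from 0.925 to 1.20 at 2500 (1.75 pooled) and from 0.918 to 1.19 at 5000 (1.31 pooled), with replicate 2 alone lowest each time and below 1, so the direction turned at all 3 ranks. It stayed above 1 in every other alternative, at 1.03 to 1.91. With 1 replicate left out in turn, the ratio of V to elsewhere at 1000 ran from 0 to 0.120 (0.200 pooled). In the other alternatives at 1000 it ran from 0.200 to 0.374. This ratio was below 1 in every alternative at ranks 1000, 2500 and 5000. At 2500 it was close to 1 (0.958) in the window of 500 bp upstream to 100 bp downstream. The median best rank, 13516 for members and 13106 for other genes, turned to 12080 and 13555 in a window of 500 bp upstream to 100 bp downstream, and to 12949 and 13765 in replicate 2 alone. The cause of these changes was not tested. Weighting other genes by window length, chosen after seeing the data, gave 1.60 at 2500. Requiring overlap reduced the members within rank 5000 of each replicate to 3, from 5, of 267. Other genes went to 207, from 287, of 19704. Core hexamers within 50 bp stood at 22.2% of member peaks within rank 5000, against 40.7% within 100 bp. At the peaks of other genes within rank 5000 the shares were alike, 22.8% within 50 bp and 38.2% within 100 bp. In replicate 1 alone 1 member, nhr-32, was within the highest 160, and 0 were under all other settings tried. No paired analysis was possible because the study has 1 group. Peaks were the starting point, so mapping and calling could not be varied.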
